A study of Mus musculus with 3 samples.

Results

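Ribonucleotide reductase and the enzymes of pyrimidine synthesis supply the deoxynucleotides that a dividing cell copies into DNA, and they set the pool of natural dCTP against which the drug cytarabine competes. Their transcripts were compared between a mouse myeloid leukaemia line resistant to cytarabine (Ara-C, a deoxycytidine analogue) and the line it came from. The group was set by name as 9 genes, Rrm1, Rrm2, Rrm2b, Tyms, Cad, Umps, Dhodh, Ctps and Dtymk. A gene was taken as measured where a probe of the array carried its current or older symbol, and where a gene had several probes the brightest on average was used. Of the 9 genes 7 were measured, of 17742 named on the array in all. Tyms and Dtymk had no probe of that name here and were not analysed.

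B117P, the parental line, gave the 2 sensitive arrays, replicates 1 and 2. The 1 resistant array came from B117HS, selected from B117P by stepwise exposure to rising Ara-C for about 10 weeks, with an IC50 about 10 times that of the parent per the labels. All were labelled as acute leukaemia cells of bone marrow from BXH-2 mice, grown in the same serum-supplemented medium, and B117HS is 1 line. Whether the drug was still in the medium when RNA was taken was not given in the sources used here, nor whether the sensitive arrays came from separate cultures. The p-values below rest on the gaps between the sensitive arrays alone, which may be technical ones, and take the single resistant array to vary in the same way.

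As background, ribonucleotide reductase turns ribonucleotides into deoxyribonucleotides and is built from a large subunit, encoded by Rrm1, which holds the catalytic and allosteric sites, and a small subunit, which supplies a radical. Rrm2 encodes the small subunit of S phase, and Rrm2b encodes a p53-inducible small subunit used outside S phase and in DNA repair. New pyrimidines are made by Cad, a fused enzyme that starts the pathway, by Dhodh, a mitochondrial dehydrogenase in the middle of it, and by Umps, which finishes UMP. Ctps then turns UTP into CTP, part of the cytidine nucleotide supply from which dCTP, the natural competitor of cytarabine, is derived. Tyms makes dTMP and Dtymk phosphorylates it.

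The promoters of Rrm1 and Rrm2 are shown because the signals of these subunits moved apart in the resistant cells. The sequences are the 250 bases before the annotated start, 5′ to 3′, from RefSeq on build GRCm38.p6. Capitals mark each CCAAT match, the box bound by NF-Y, searched on both strands. The Rrm1 window is chr7:102441445-102441694 and the Rrm2 window is chr12:24708004-24708253, both on the plus strand.
Rrm1: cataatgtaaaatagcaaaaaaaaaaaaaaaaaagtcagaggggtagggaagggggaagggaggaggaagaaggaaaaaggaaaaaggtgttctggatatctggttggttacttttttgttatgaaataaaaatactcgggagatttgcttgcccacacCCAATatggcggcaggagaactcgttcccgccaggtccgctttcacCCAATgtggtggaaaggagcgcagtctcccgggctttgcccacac
Rrm2: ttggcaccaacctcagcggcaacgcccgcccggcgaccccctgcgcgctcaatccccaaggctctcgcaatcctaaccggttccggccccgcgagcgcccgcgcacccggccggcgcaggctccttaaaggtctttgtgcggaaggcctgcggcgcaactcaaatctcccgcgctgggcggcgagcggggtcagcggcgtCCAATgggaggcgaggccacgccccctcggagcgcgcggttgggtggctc
The Rrm1 window held CCAAT 91 to 87 and 45 to 41 bases before the start, and the Rrm2 window held it 50 to 46 bases before. CCAAT was found in 33.8% of 32851 promoter windows of this length. The Rrm2 window also held the GC box GGGCGG at 225 to 220 and 75 to 70 bases before the start, a match that 32.7% of windows held and the Rrm1 window did not. Promoter windows were matched for 7 of the 9 genes, 8 windows in all, since Ctps had 2. The GC box was in 5 of the 8, namely those of Rrm2, Cad, Umps and Tyms and a window of Ctps. None of the 8 held TTTNGCGC, a form of the E2F site that 1.13% of all windows held. No match overlapped a match of another of these motifs in the Rrm1 and Rrm2 windows. The E-box CACGTG, held by 6.02% of windows, occurred in those of Tyms and Dtymk, the genes without a probe here.

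The arrays gave an intensity for 26423 probes, and so few arrays limit the precision. The median intensity was lower on the resistant array, at 24.9 against 58.4 and 72.5 on the sensitive arrays, while its highest intensity was above theirs. Over the 6352 probes whose sensitive mean was at least 500 units, its median log2 ratio to that mean was -0.88. Each difference is therefore given as deposited and after the arrays were scaled to remove this shift, and the median difference of all genes was -0.33 as deposited and -0.01 after scaling. To be called, a gene needed an adjusted p under 0.05 in limma (Benjamini-Hochberg, all genes) and had to lie at least 1 log2 unit above both sensitive arrays or at least 1 below both. The shares of all genes given beside each list include many dim genes and were not matched for brightness. Of the myeloid markers, 10 of 11 were measured, with summed intensities of 110043 and 118294 in sensitive and 103235 in resistant cells, mostly from Mpo (76710, 84138 and 80905). As deposited 4 of the 10 were called lower (40.0%, against 18.5% of all genes) and 0 higher (against 5.23%). Those called lower were Spi1, Itgam, Cd34 and Csf3r. After scaling Spi1 and Cd34 were still called lower (20%, against 7.8% of all genes) and Cebpa higher (10%, against 10.9%). Cd33 read at most 73.9 on any array. Markers of B, T, erythroid and epithelial cells summed to at most 335 units per list on any array. The 6 stromal and endothelial markers summed to 1076 and 1159 in sensitive and 1619 in resistant cells. Of that last sum 1590 came from Pecam1, which leukocytes also carry, while Pdgfrb was called lower on both scales, and 5 of the 6 read at most 50 on the resistant array, with Col1a1 and Col3a1 at 0. The part of other cells in the results below was not tested.

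No gene of the group was called on both scales, but the transcripts of the reductase subunits parted in the resistant cells. The large subunit gene Rrm1 was lower and the small subunit gene Rrm2 higher than on either sensitive array. As deposited, 0 of 7 genes were called higher and 1 lower, or 14.3% of the group, where 5.23% of all genes were called higher and 18.5% lower. After scaling, 2 of 7 were called higher, or 28.6%, and 0 lower, against 10.9% and 7.8% of all genes. The median difference of the 7 genes was -0.53 as deposited and 0.33 after scaling. All 7 probes entered the fit without a filter on low values and read at least 186 units on every array of the sensitive line and at least 190 on the resistant array.

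**Figure D1:**
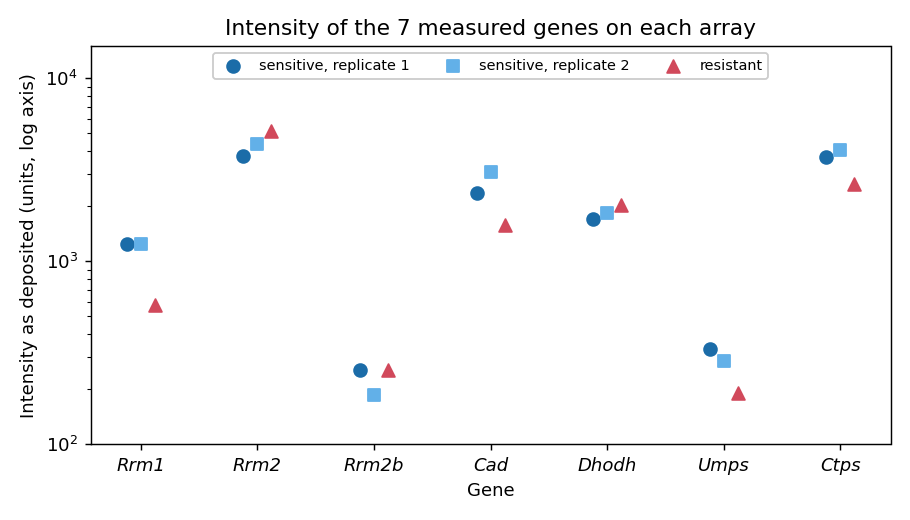
Intensity as deposited (log axis) of the 7 measured genes on the 2 sensitive arrays and the resistant array, 1 point per array. Rrm1, Cad, Umps and Ctps lay below both sensitive arrays on the resistant array, Rrm2 and Dhodh above both, and Rrm2b between them.

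Rrm1 read 1241 and 1236 in the sensitive replicates and 579 on the resistant array. The sensitive arrays were close together, at 1239 ± 3.71 (SD, n = 2), and the resistant value was 46.7% of their mean. The log2 difference of Rrm1 was -1.04 (SE 0.22, limma adjusted p = 0.0022), just past the size asked, and Rrm1 was called lower as deposited. After scaling the Rrm1 difference was -0.21 (SE 0.17, limma adjusted p = 0.38) and was not called. Against the other probes of its own array, the Rrm1 probe stood at percentile 86.0 and 85.3 in sensitive replicates and at 82.5 on the resistant array. A second Rrm1 probe read 39.8, 10.6 and 7.78 in the same order. The Rrm1 call was also lost with the mean of both probes (-0.99), an offset of 100 (-0.98), a floor of 50 (-1.10), quantile normalization (-0.43) and centring (-0.41).

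Rrm2 read 3741 and 4365 in the sensitive replicates and 5144 on the resistant array, which was above both. The resistant value was 1.27 times the sensitive mean of 4053 ± 441 (SD, n = 2). The Rrm2 difference was 0.34 as deposited (SE 0.20, limma adjusted p = 0.18), short of a call. After scaling Rrm2 was called higher, with a difference of 1.22 (SE 0.16, limma adjusted p = 0.016) and 1.29 and 1.14 from the sensitive arrays. The call did not hold when arrays were matched by quantiles (0.69) or centred on their medians (0.97). Within the arrays the Rrm2 probe moved from percentile 95.3 and 95.8 to 97.5.

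Rrm2b, the p53-inducible small subunit gene, read 256 and 186 in the sensitive replicates and 254 on the resistant array, which lay between them. Its difference was 0.18 (SE 0.30, limma adjusted p = 0.65) as deposited and 0.94 (SE 0.28, limma adjusted p = 0.075) after scaling, without a call on either scale. The sensitive arrays differed in Rrm2b by a log2 value of -0.46, the widest replicate gap of the 7 genes. Leaving out sensitive replicate 1 gave 0.36 and leaving out replicate 2 gave -0.01 as deposited.

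**Figure D2:**
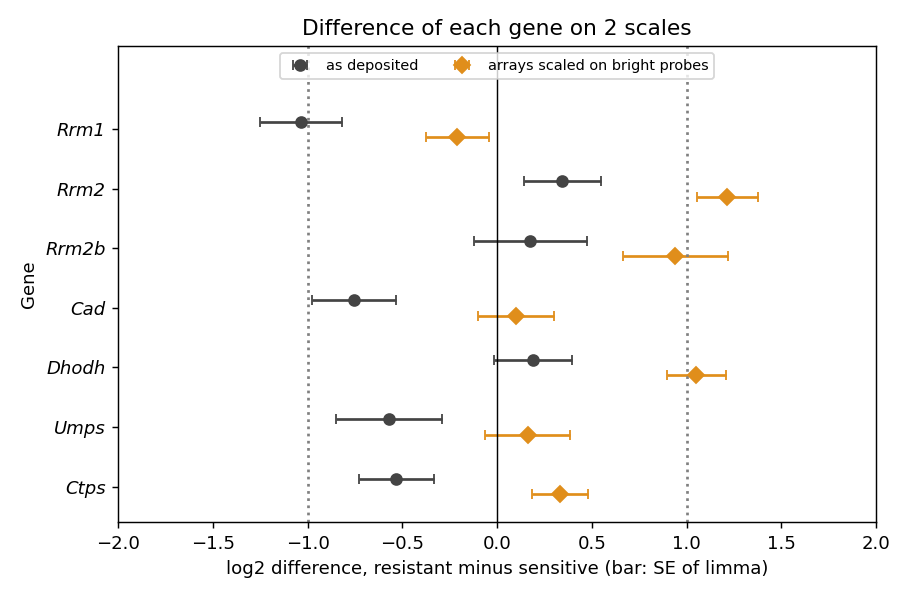
log2 difference of resistant minus sensitive for each measured gene, on log2(intensity + 50) as deposited (circles) and after scaling on bright probes (diamonds), with the SE of limma; dotted lines mark differences of 1. Rrm1 passed -1 as deposited and Rrm2 and Dhodh passed 1 after scaling, while no gene passed on both scales.

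In the pathway that makes UMP, Dhodh read above both sensitive arrays on the resistant array as deposited, while Cad and Umps read below both. Cad, the enzyme that starts the pathway, read 2372 and 3071 in the sensitive replicates and 1577 on the resistant array, 58.0% of the sensitive mean. The Cad difference was -0.76 (SE 0.22, limma adjusted p = 0.014) as deposited, short of the size asked, and 0.10 (limma adjusted p = 0.73) after scaling. Umps read 330 and 284 in the sensitive replicates and 190 on the resistant array, below both. Its difference was -0.57 (SE 0.28, limma adjusted p = 0.11) as deposited and 0.16 (limma adjusted p = 0.61) after scaling. Neither gene was called on either scale, and the sign of each difference turned with the scaling.

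Dhodh, the mitochondrial dehydrogenase, read 1711 and 1828 in the sensitive replicates and 2025 on the resistant array, which was above both. The Dhodh difference was 0.19 (SE 0.21, limma adjusted p = 0.47) as deposited and 1.05 (SE 0.15, limma adjusted p = 0.019) after scaling, where it was called higher. That call rested on the choice of scaling. With bright probes chosen by their mean over all 3 arrays the Dhodh difference was 0.95 and not called. Dhodh was also not called when arrays were matched by quantiles (0.69) or centred on their medians (0.81). The Dhodh probe moved from percentile 89.1 and 89.3 on the sensitive arrays to 93.3 on the resistant array.

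Ctps, which makes CTP, read 3695 and 4034 in the sensitive replicates and 2655 on the resistant array, below both and 68.7% of their mean. Its difference was -0.53 (SE 0.20, limma adjusted p = 0.044) as deposited and 0.33 (SE 0.15, limma adjusted p = 0.16) after scaling, without a call on either scale. The Ctps probe held percentiles of 95.2 and 95.4 in sensitive replicates and 94.9 on the resistant array.

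Ratios between genes on the same array do not change with a factor applied to that array, so they compare the genes without a choice of that factor. They can still change with a normalization that is not a single factor. The size of such a ratio depends on its probes, and only its change between arrays is read here. The log2 ratio of Rrm2 to Rrm1 was 1.59 and 1.82 in the sensitive replicates and 3.15 on the resistant array. The resistant array thus stood 1.45 above the sensitive mean, a ratio 2.72 times as high, where the sensitive arrays differed by 0.23. After quantile normalization this change was 1.15. The ratio of Rrm2b to Rrm1 was -2.28 and -2.73 in sensitive and -1.19 in resistant cells, a change of 1.31. The ratio between the small subunit genes, Rrm2 to Rrm2b, was 3.87 and 4.55 in sensitive and 4.34 in resistant cells, inside the sensitive range.

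The ratio of Dhodh to Cad was -0.47 and -0.75 in the sensitive replicates and 0.36 on the resistant array, a change of 0.97. Dhodh to Umps changed by 0.89 and Dhodh to Ctps by 0.74, each beyond the gap between the sensitive arrays. The ratio of Cad to Umps was 2.84 and 3.44 in sensitive and 3.06 in resistant cells, inside the sensitive range. The 21 pairs come from the same 7 genes and are not independent, and pairs of other genes were not counted for comparison. Of the 21 pairs, 12 lay outside the sensitive range on the resistant array by more than the sensitive arrays differed. Of these 12 pairs, 10 set Rrm2, Rrm2b or Dhodh against Rrm1, Cad, Umps or Ctps, a division made after the values were seen. The division follows the sign of each gene's difference as deposited, so every ratio across it had to stand above the sensitive mean on the resistant array. Counts of pairs across it are therefore no support beyond the values of the single genes. Taken in that direction, the 12 pairs that cross this division stood 0.74 to 1.45 above the sensitive mean, and 0.46 to 1.33 above the nearer sensitive array. An exact permutation of the 3 arrays allows no p below 0.333, and the ratios are given as values without a test.

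**Figure D3:**
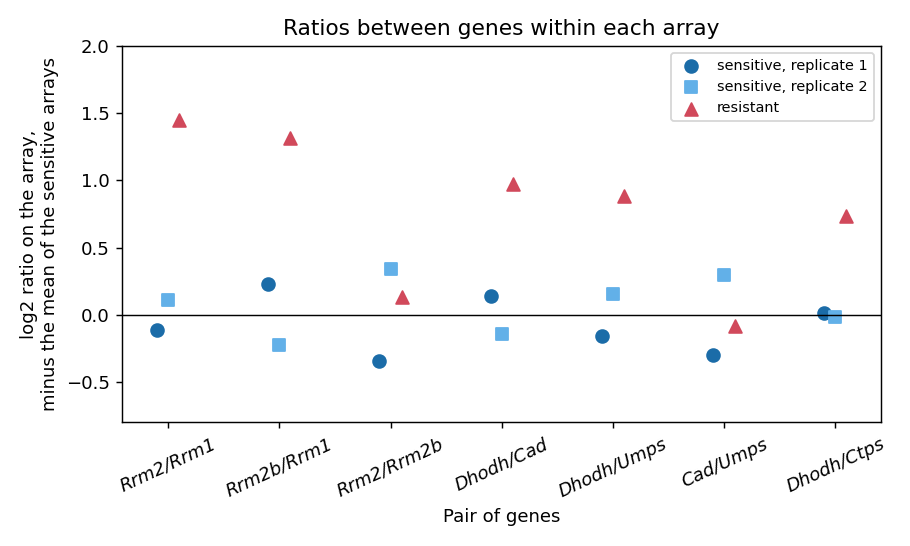
log2 ratio between pairs of genes on each array, set to 0 at the mean of the sensitive arrays, 1 point per array. Rrm2/Rrm1 and Rrm2b/Rrm1 stood 1.45 and 1.31 higher on the resistant array, while Rrm2/Rrm2b and Cad/Umps stayed inside the sensitive range.

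The other genes of pyrimidine and deoxynucleotide supply were called at shares near those of all genes. Of 33 genes listed 27 were measured, and as deposited 0 were called higher and 5 lower (18.5% of the list, against 18.5% of all genes). After scaling 4 were called higher (14.8%, against 10.9%) and 2 lower (7.41%, against 7.8%), with a median of -0.09 against -0.01 for all genes. The 2 called lower on both scales were Cmpk2 and Prps2. Cmpk2, a mitochondrial nucleotide kinase gene that interferon induces, fell from 1374 ± 469 (SD, n = 2) to 94.9, a change of -3.26 in log2 (SE 0.29, limma adjusted p = 3.46e-06). Prps2, which makes the phosphoribosyl donor of nucleotide synthesis, fell from 652 ± 109 to 128, a log2 difference of -1.97.

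Dctd, the deaminase that turns dCMP into dUMP for the Tyms reaction, read 1291 and 1513 in sensitive and 2775 in resistant cells. The Dctd difference was 0.96 as deposited, short of a call from replicate 2, and 1.83 (limma adjusted p = 0.0089) after scaling, where it was called higher. Samhd1, which degrades deoxynucleotide triphosphates, was called lower as deposited (-1.54) and not after scaling (-0.69). The salvage kinase genes Tk1 and Dck were not called on either scale, with differences of -0.60 and 0.17 as deposited and 0.11 and 1.05 after scaling. Dut, which removes dUTP, differed by -0.73 as deposited and -0.10 after scaling without a call.

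The thioredoxin and glutaredoxin systems supply electrons to ribonucleotide reductase. A list of genes related to these systems, not all of them donors to the enzyme, gave no gene called on both scales among 7 measured. As deposited 0 were called higher and 1 lower (14.3%, against 18.5% of all genes), and after scaling 1 was called higher (14.3%, against 10.9%) and 0 lower. Txn1, the cytosolic thioredoxin gene, read 32.3 and 50.1 in sensitive and -1.56 in resistant cells on a probe close to background, and it was not called.

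Among S-phase genes, with which Rrm1 and Rrm2 are usually coexpressed, a larger share was called lower than among all genes as deposited, and a similar share after scaling. Of 23 measured, 10 were called lower as deposited (43.5%, against 18.5% of all genes) and 0 higher, with a median of -1.05. At most 1 of the 23 read 50 units or less on any array, while 43.0% of all probes read at least 50 on the resistant array. The bright probes as a whole shifted by -0.88 as deposited, and a share of genes of like brightness was not counted. After scaling 2 were called lower (8.7%, against 7.8%) and 1 higher, with a median of -0.22. The 2 called lower on both scales were Prim1 and E2f2. Prim1, the primase subunit that starts new DNA strands, fell from 3696 ± 172 (SD, n = 2) to 716, a log2 difference of -2.29. E2f2, an activator of S-phase genes, fell from 688 ± 112 to 107, a log2 difference of -2.22. Mcm2, a subunit of the replicative helicase, was called lower as deposited (-1.31) and not after scaling (-0.48).

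The pattern over the 3 arrays placed Rrm1 and Rrm2 beside different genes. Likeness was the Euclidean distance between log2 values as deposited after each gene was centred on its own mean, over 65 genes of the other lists. Of these, 23 were S-phase genes, whose median difference of -1.05 was close to that of Rrm1 (-1.04). With a single resistant array, the distances largely restate the differences given above. Nearest to Rrm1 were the helicase gene Mcm5 (distance 0.06), the polymerase alpha gene Pola1 (0.09) and the ligase gene Lig1 (0.11), all of DNA copying. Nearest to Rrm2 were the cyclin A gene Ccna2 (0.09), also of the S-phase list, Prps1 (0.16) and the diphosphate kinase gene Nme3 (0.24). Nearest to Rrm2b were Nme3 (0.20), Dck (0.22) and Tk2 (0.26). Only 3 arrays enter each distance, so the distances are a description.

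Several targets of p53, the factor that induces Rrm2b, were called higher while Rrm2b was not, and the difference between them and Rrm2b was not tested. Of 8 measured, 3 were called higher as deposited (37.5%, against 5.23% of all genes) and 1 lower (12.5%, against 18.5%). After scaling 4 were called higher (50%, against 10.9%) and 0 lower. The gene called lower as deposited was Sesn1, a stress-induced sestrin gene (-1.89), named after its value was seen. Mdm2, also of the list and also named after its value was seen, read 2387 and 2254 in sensitive and 1831 in resistant cells. It was not called on either scale, with differences of -0.33 as deposited and 0.53 after scaling. Zmat3, a zinc finger gene, rose from 59.1 ± 11.5 (SD, n = 2) to 824, a rise of 3.01 in log2 (SE 0.30, limma adjusted p = 8.03e-06). Gadd45a, a growth arrest gene, rose from 803 ± 264 to 3621 and the cyclin G gene Ccng1 from 945 ± 66.2 to 3026, log2 differences of 2.14 and 1.63. The cell cycle inhibitor gene Cdkn1a read 914 and 1455 in sensitive and 2938 in resistant cells, a difference of 1.31 that was called after scaling only (2.18). Trp53 itself had no named probe here. In the plot by gene list, the p53 targets spread from below 0 to above 3 as deposited. Of the 8, 4 lay below 0 and 4 above as deposited, and 2 below and 6 above after scaling.

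**Figure D4:**
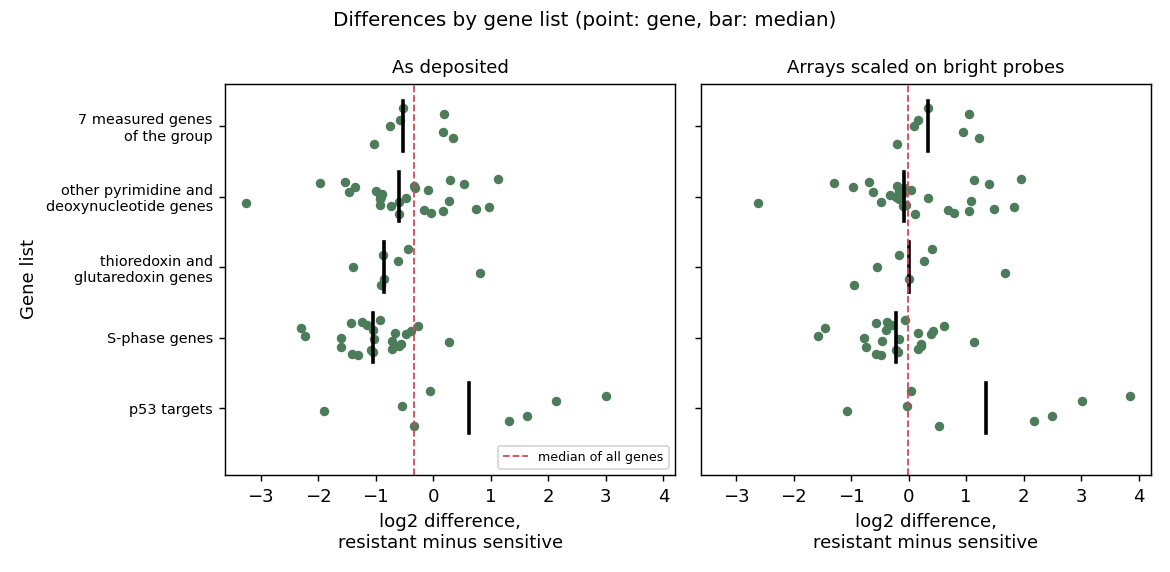
log2 difference of resistant minus sensitive for every measured gene of 5 lists, as deposited (left) and after scaling on bright probes (right); points are genes, black bars list medians and the dashed line the median of all genes (-0.33 and -0.01). The S-phase list has its median at -1.05 and -0.22, and the 7 genes of the group at -0.53 and 0.33.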

How the data were processed

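Per the labels' protocols, Trizol-extracted RNA was copied into amino-allyl antisense RNA by an Eberwine-type amplification, and the Cy5-coupled product was hybridised in 1 colour. The authors deposited 1 table of linear intensity per probe and array, whose values reach below 0. How background and array factors were set was not given in the sources used here. Of 26423 probes, 20377 had 1 platform symbol, 0 several and 6046 none. Current mouse names (GRCm38.p6 annotation) matched 18213 symbols, older names 2126, and 38 were unmatched. Groups came from the sample titles.

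The members, lists, offset and thresholds were chosen with earlier results of these data known. All 17742 genes were fitted on log2(intensity + 50) over the 3 arrays with limma 3.58.1 under R 4.3.3 (eBayes with a variance trend, 1 residual degree of freedom, prior 11.0). Differences on this scale understate changes of dim genes. The fit was tested on simulated data. All simulated arrays had the spread of the sensitive arrays and no shift of a whole array, so that test cannot vouch for the calls on the shifted resistant array. Scaling on bright probes divided each array by its median ratio to the sensitive mean, over probes of at least 500 units in that mean. Choosing probes by the mean over all arrays, whose resistant shift was -0.77, was added after seeing the data, as were the alternatives for the ratios between genes. Other alternatives were quantile normalization, centring, offsets of 16 and 100, a floor of 50, a filter on the dimmest 25%, the mean of a gene's probes, other variance models and thresholds, and leaving out each sensitive array.

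Named were all members, genes of the other lists called on both scales (at most 6 per list), those nearest in pattern to Rrm1, Rrm2 and Rrm2b, and Tk1, Dut, Dctd, Dck, Samhd1, Pcna, Mcm2, Trp53, Cdkn1a and Txn1; Pcna had no named probe, further cell type markers were named after their values were seen, and 1 further item is not reported here. Tables and plots were made with Python 3.11.15 (numpy 2.4.6, pandas 2.3.3, matplotlib 3.10.9).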

Additional observations from a re-analysis of the deposited data

How the results depend on the processing

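No paired analysis was possible because the resistant array carries no replicate number. With a single resistant array, a factor of that array and a change in the cells cannot be told apart. Calls of the group higher numbered 0 as deposited, 2 after scaling on bright probes and 1 with bright probes chosen by the mean of all arrays, and 0 in the other settings. Calls lower numbered 1 as deposited and 0 after either scaling on bright probes, quantile normalization, centring, an offset of 100, a floor of 50 or the mean of a gene's probes. By adjusted p alone they numbered 3 (Rrm1, Cad and Ctps), a setting in which the share of all genes was not counted. Without either sensitive array, where no test is left, 0 genes lay at least 1 higher and 1 at least 1 lower. The group's median was 0.33 and 0.23 after the scalings, 0.040 after quantile normalization and 0.090 after centring, and -0.48 to -0.47 without a sensitive array.

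Signs turned from the deposited scale for Umps (0.16 and 0.069 after the scalings, 0.040 by quantiles, 0.051 by centring), Ctps (0.33, 0.23 and, by centring, 0.090) and Cad (0.10 after the main scaling; -0.004 with bright probes by the mean of all arrays). Rrm2b was -0.01 without sensitive replicate 2 and 0.36 without replicate 1.

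The change in the ratio of Rrm2 to Rrm1 was 1.15 after quantile normalization and 1.33 to 1.56 without a sensitive array. The ratio of Rrm2b to Rrm1 changed by 1.09 to 1.54 and that of Dhodh to Cad by 0.83 to 1.11 without a sensitive array.

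Other pyrimidine genes called higher numbered 4 after either scaling and after centring, 3 by quantiles and 1 with an offset of 16. Those called lower numbered 2 after either scaling, quantiles and centring, and 0 with the floor. S-phase genes called lower numbered 2 after either scaling and centring, 3 by quantiles and 0 with the floor, and 1 was called higher after either scaling. Without a sensitive array, pyrimidine genes past the size numbered 0 to 2 higher and 6 to 7 lower, and S-phase genes 0 higher and 11 to 12 lower. Over all genes, calls higher and lower numbered 928 and 3284 as deposited. They numbered 1942 and 1383 after scaling, 1749 and 1503 with bright probes by the mean of all arrays, 1505 and 1508 by quantiles, 1697 and 1273 by centring, and 133 and 26 with the floor. With an offset of 100 they numbered 790 and 2539, and with the mean of a gene's probes 905 and 3160. Without a sensitive array 976 to 1108 were past the size higher and 3625 to 4288 lower.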
